A study of Bos taurus with 9 samples.

Results

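The 10 S100 genes described here are the rows named S100A2, S100A4, S100A6, S100A8, S100A9, S100A10, S100A11, S100A12, S100A14 and S100A16 in tables that list 20679 bovine genes. They were chosen by gene name, and all 10 were found. Bovine uterine gland fragments, enzymatically isolated from uteri collected at an abattoir and labelled as epithelial cells, were embedded in Matrigel, a basement membrane gel, and kept for 5 days in a DMEM/F12-based medium that contained insulin, selenite, transferrin, ascorbic acid and BSA in every group. The Control group received no EGF and formed cysts (CYST). The EGF group received EGF in Matrigel alone (MAT) and formed tubular UG-LIKE structures, and the third group received EGF in Matrigel supplemented with type I collagen (MAT + COL). EGF was used at 5 ng/ml and collagen I at 0.5 mg/ml, doses that the labels do not state and that come from the published methods. Each group had 3 RNA-seq libraries, numbered 1 to 3, and every comparison below is 3 libraries against 3.

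S100 proteins are small calcium-binding proteins with paired EF-hand motifs that act mostly as dimers. On binding calcium most of them expose a surface that docks onto target proteins such as annexins, non-muscle myosin or p53, and several are also released from cells, where they act on receptors such as RAGE and TLR4 or hold back metal ions from microbes. Most of the family lies in a dense cluster beside the genes of the epidermal differentiation complex, and epithelia and myeloid cells each express characteristic members.

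S100 transcripts were abundant in all 9 libraries, but the family was far from uniform in its response to EGF. S100A4 rose about 6-fold in UG-LIKE structures relative to cysts and was the one member past the threshold in the unpaired edgeR test. Unpaired DESeq2 also called S100A14 and S100A16, and gave no adjusted p for S100A8 and S100A12. S100A14, S100A16 and S100A12 were also higher in UG-LIKE structures, and passed the threshold once libraries with the same replicate number were compared with each other. The 3 most abundant members, S100A10, S100A11 and S100A2, were called in neither edgeR fit. S100A8, S100A9 and S100A12 differed more between replicate numbers than between cultures, and so, to a lesser degree, did S100A2 and S100A10. No member passed the threshold for collagen I.

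**Figure D1:**
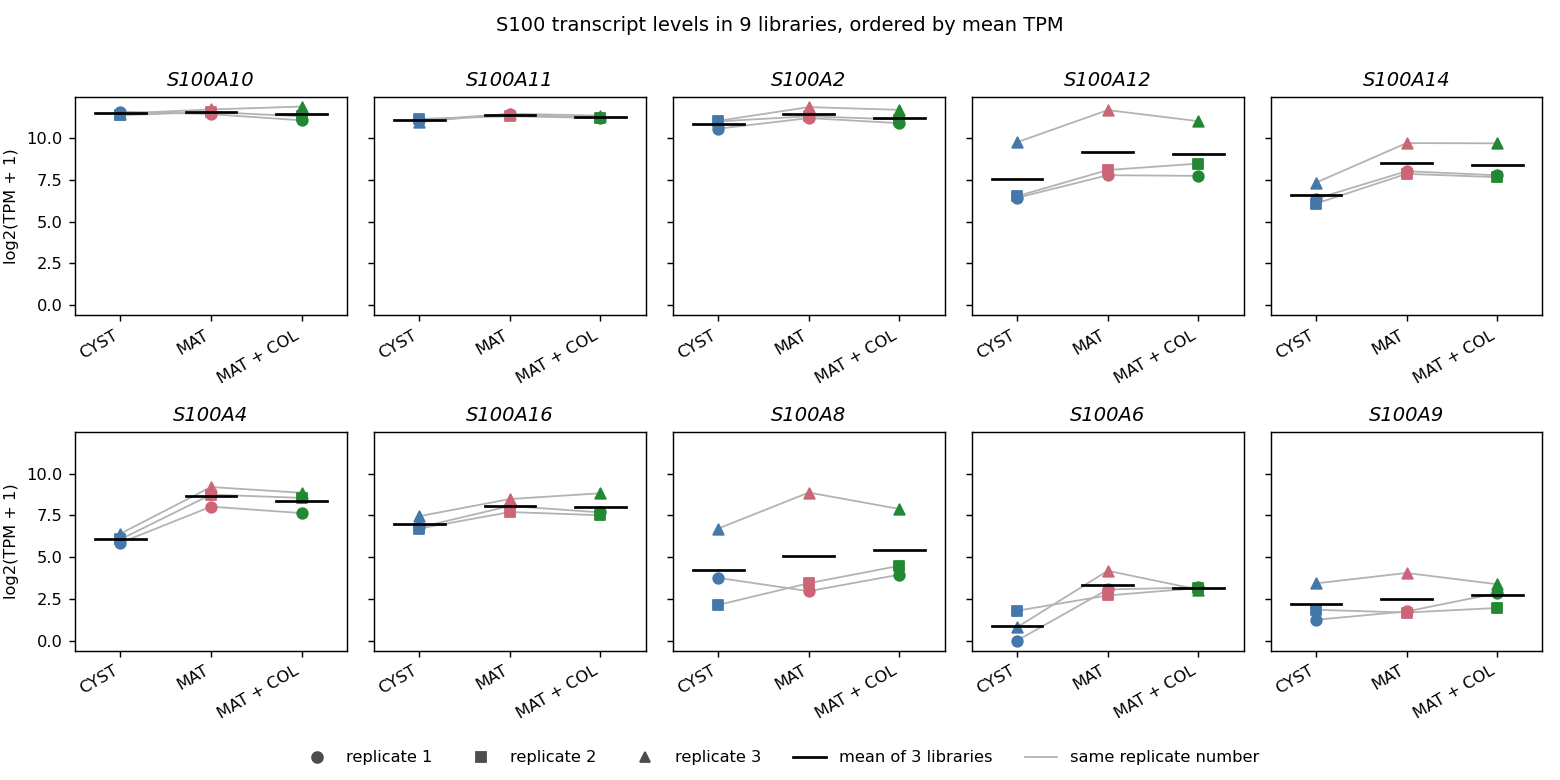
Transcript level of each S100 gene in the 9 libraries. The vertical axis is log2(TPM + 1), the symbols mark replicate numbers, grey lines join libraries with the same number and black bars are the means of 3 libraries. S100A4 is higher in all 6 EGF libraries than in all 3 CYST libraries. Replicate 3 stands above the others in every group for S100A8, S100A12 and S100A9, and also for S100A2, S100A4, S100A14 and S100A16.

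Total counts per library ranged from 6568968 to 17948600 reads on genes, and they are counts of PCR-amplified reads without molecular identifiers. Levels are compared between genes in TPM, a unit that corrects for transcript length and library size. The labelled cell type was checked against 8 gland epithelium genes (EPCAM, CDH1, KRT8, KRT18, KRT19, CLDN4, PAX8 and FOXA2), all of which were detected, with summed levels of 17690 to 44013 TPM. Stromal fibroblast genes summed to between 755 and 4566 TPM, and replicate 3 had the highest stromal sum in every group. Endothelial genes summed to between 8.26 and 26.1 TPM. These are bulk samples, in which fewer cells of a type and less RNA per cell cannot be told apart.

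Together the 10 genes accounted for 0.713% to 0.838% of all TPM in CYST, 0.898% to 1.55% in MAT and 0.728% to 1.38% in MAT + COL. S100A10, S100A11 and S100A2 held most of this share in every library, at 0.642% to 0.995% of all TPM, although in MAT replicate 3 they held 0.995% of 1.55% and in MAT + COL replicate 3 0.977% of 1.38%. Averaged over 9 libraries, S100A10 ranked 28, S100A11 34 and S100A2 37 among the 20679 genes by TPM. S100A12 ranked 147, followed by S100A14 at 458, S100A4 at 565, S100A16 at 723 and S100A8 at 1775. S100A6 and S100A9 ranked 8540 and 8730, with 101 and 377 reads over all 9 libraries. Over the 9 libraries the range of every gene overlapped that of its neighbour in this order, but within a library S100A2 exceeded its neighbour S100A12 in 9 of 9 libraries. Within each library, S100A10, S100A11 and S100A2 were the 3 highest members, except that S100A12 exceeded S100A11 in MAT replicate 3.

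The comparison of MAT with CYST asks which transcripts differ between UG-LIKE structures and cysts. Counts were tested with edgeR's quasi-likelihood test over the 12074 genes that passed its filter on low counts, and a gene was called when its Benjamini-Hochberg adjusted p was under 0.05. Of the 9 S100 genes tested, 1 was called higher and 0 lower, against a background in which 1.79% of all genes were called and 0.845% of all genes were called higher. S100A6 did not pass the filter. Libraries with the same replicate number deviated together from their group means across genes, so the replicate number was added as a block in a second fit. The block called 4 of 9 S100 genes higher and 0 lower, where 10.6% of all genes were called and 4.9% called higher. All 9 Log2FC values were positive in both fits, with a median of 1.05 without the block, while 50.8% of all genes tested were positive and their median was 0.01.

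S100A4 binds non-muscle myosin IIA and is known for its association with cell motility. Its level was 57.1, 65.9 and 83.7 TPM in CYST replicates 1, 2 and 3. In MAT it was 259, 428 and 587 TPM. The groups did not overlap, and the lowest MAT library stood above the highest CYST library. The ratio of MAT to CYST was 4.54, 6.49 and 7.01 in the same-numbered pairs. In edgeR this gave a Log2FC of 2.59 (SE 0.37, adjusted p = 0.0269), a 6.04-fold difference, and rank 50 of 12074 genes by p. With the block the Log2FC was 2.56 (SE 0.19, adjusted p = 0.0014). The unpaired edgeR call was lost when CYST replicate 1 (adjusted p = 0.124), CYST replicate 2 (0.121), MAT replicate 1 (0.0606) or MAT replicate 2 (0.0624) was left out, with Log2FC between 2.26 and 2.91 over the 6 omissions, whereas the blocked call was kept without any one replicate number. The deposited row for S100A4 (ENSBTAG00000019203, chromosome 3: 16821848 to 16826547, plus strand, ARS-UCD2.0) shares 1035 bases with the RefSeq gene S100A3, which has no row of its own under that name, so reads from the overlap cannot be assigned to one gene.

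S100A14 and S100A16 are adjacent epithelial members with unusual calcium-binding sites. S100A14 was measured at 82.0, 66.9 and 161 TPM in CYST and at 260, 233 and 838 TPM in MAT. The groups did not overlap, and replicate 3 was the highest library of each. The edgeR Log2FC was 2.04 (SE 0.62, adjusted p = 0.119), so edgeR made no unpaired call, whereas unpaired DESeq2 did (adjusted p = 0.00389). With the block the Log2FC was 1.94 (SE 0.18, adjusted p = 0.00216), and leaving out any one replicate number kept this call.

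S100A16 was measured at 109, 104 and 174 TPM in CYST and at 266, 207 and 356 TPM in MAT, again without overlap. Same-numbered pairs differed by 2.45-, 1.99- and 2.04-fold. Its edgeR Log2FC was 1.05 (SE 0.34, adjusted p = 0.139) without the block and 1.09 (SE 0.17, adjusted p = 0.0134) with it. The blocked edgeR call was lost without replicate 1 (adjusted p = 0.119). Unpaired DESeq2 called it (adjusted p = 0.0374).

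**Figure D2:**
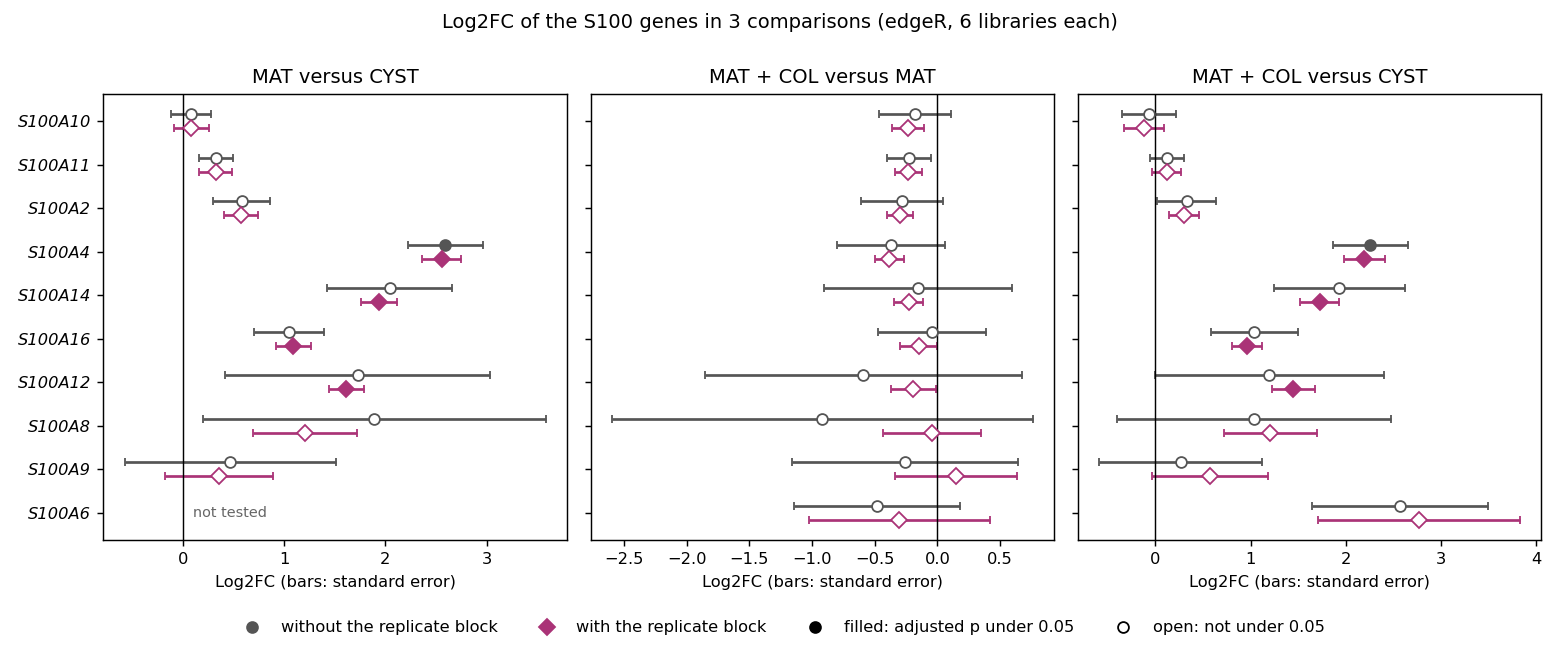
Log2FC of each S100 gene in the 3 comparisons, from edgeR on 6 libraries each, with bars of 1 standard error. Circles are fits without the replicate block, diamonds fits with it, and filled symbols mark an adjusted p under 0.05. S100A4 is filled in both fits against CYST, S100A14, S100A16 and S100A12 are filled with the block alone, and no symbol is filled for MAT + COL versus MAT.

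S100A12, S100A8 and S100A9 are the calgranulins, secreted members best known from neutrophils and monocytes. S100A8 and S100A9 form calprotectin, which binds zinc and manganese, and S100A12 is a ligand of the receptor RAGE. In these cultures the 3 genes were present at very different levels, and each varied widely between replicate numbers.

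S100A12 was measured at 85.5, 91.3 and 867 TPM in CYST and at 220, 273 and 3294 TPM in MAT. CYST replicate 3 stood above MAT replicates 1 and 2, so the groups overlapped. Within pairs the ratio of MAT to CYST was 2.57, 2.99 and 3.80. The edgeR Log2FC was 1.73 (SE 1.30, adjusted p = 0.498) without the block and 1.62 (SE 0.17, adjusted p = 0.0035) with it. Leaving out MAT replicate 3 alone turned the unpaired Log2FC to -0.69, while leaving out replicate 3 from both groups gave a blocked Log2FC of 1.56 (edgeR, adjusted p = 0.00424). Without replicate 1 the blocked edgeR adjusted p was 0.0513, above the threshold.

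S100A8 was measured at 12.5, 3.39 and 104 TPM in CYST and at 6.78, 9.84 and 466 TPM in MAT. MAT was higher in 2 of 3 pairs. Neither fit called it, with an edgeR Log2FC of 1.89 (SE 1.69, adjusted p = 0.577) and, with the block, 1.20 (SE 0.51, adjusted p = 0.175). Leaving out MAT replicate 3 turned the unpaired Log2FC to -2.43.

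S100A9, the usual partner of S100A8, was low throughout, at 1.37, 2.59 and 9.76 TPM in CYST and 2.35, 2.20 and 15.6 TPM in MAT. Its edgeR Log2FC was 0.47 (SE 1.04, adjusted p = 0.841). The TPM of S100A12 was between 34.8 and 222 times that of S100A9 and between 6.82 and 32.4 times that of S100A8 in the same library.

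Of 12 genes of neutrophils and monocytes listed, 11 had a row, and their summed level was 19.4 to 46.3 TPM, most of it CD14. The sum in replicate 3 was the lowest of its group in CYST (19.4 TPM) and in MAT + COL (24.8 TPM) and the highest in MAT (46.3 TPM). Besides CD14, the highest counts in any library were 86 for CSF3R, 74 for ITGB2, 58 for FCER1G, 28 for PTPRC and 23 for CXCR2. TYROBP reached 11, ITGAM 9 and MPO 6 counts. SPI1, a myeloid transcription factor, reached at most 3 counts, and ELANE, a neutrophil elastase, at most 1. The part of these genes in the calgranulin levels was not tested.

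S100A10 and S100A11 bind annexins. S100A10 forms a stable complex with annexin A2 without needing calcium, and S100A11 binds annexins A1 and A2 at membranes. S100A10 was measured at 3098, 2658 and 2852 TPM in CYST and at 2785, 3057 and 3384 TPM in MAT. The groups overlapped, and the edgeR Log2FC was 0.08 (SE 0.20, adjusted p = 0.855). S100A11 was measured at 2164, 2290 and 2017 TPM in CYST and at 2813, 2548 and 2831 TPM in MAT. These groups did not overlap, yet the edgeR Log2FC of 0.33 (SE 0.17, adjusted p = 0.316) was not called in either fit.

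S100A2, an epithelial member that binds p53, was measured at 1523, 2060 and 2111 TPM in CYST and at 2364, 2551 and 3733 TPM in MAT. The lowest MAT library was above the highest CYST library. The edgeR Log2FC was 0.58 (SE 0.28, adjusted p = 0.283) without the block and 0.58 (SE 0.17, adjusted p = 0.0668) with it. It was called by DESeq2 with the block (adjusted p = 0.0106) and by edgeR on all 9 libraries with the block (adjusted p = 0.0174). The deposited row for S100A2 spans 27601 bases, where the RefSeq gene spans 3337. The effect of this on its level and rank was not tested.

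S100A6, which binds the calcyclin-binding protein CACYBP, had 0, 5 and 1 counts in CYST and 6, 12 and 28 counts in MAT, or 0, 2.46 and 0.740 TPM against 7.35, 5.51 and 17.2 TPM. The groups did not overlap, but the gene did not pass the filter on low counts. It was called in none of the 5 alternative fits that included it, with adjusted p between 0.0758 and 0.344 in edgeR. Its deposited row spans 629 bases (ENSBTAG00000051765, chromosome 3: 16835161 to 16835789), all of them inside the RefSeq gene LOC618256.

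By TPM alone, S100A2, S100A4, S100A11, S100A14 and S100A16, of the 9 S100 genes tested, were higher in MAT without overlap. This held for 11.9% of all genes tested. MAT was higher in all 3 pairs for these genes and for S100A12, where 25.1% of the genes tested were. S100A6 was also higher in both ways, but it was not tested and so is outside these shares.

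Among gland epithelium genes, 6 of 8 had a Log2FC above 0, where 50.8% of all genes tested did. With the block 3 were called higher, where 4.9% of all genes were. KRT19 had an edgeR Log2FC of 1.13 (adjusted p = 0.0662, with the block 0.0318), and EPCAM and KRT8 were the other two. Of 8 stratified or basal epithelium genes 7 had a row. Their sum was 44.1 to 343 TPM in CYST and 1110 to 2775 TPM in MAT. SPRR3, a cornified envelope protein, made up most of it except in CYST replicate 2 (31.9 of 72.8 TPM). Replicate 3 had the highest sum in every group. CSTA, another cornified envelope protein, was 0, 0.689 and 1.38 TPM in CYST and 25.8, 30.3 and 25.5 TPM in MAT. Its edgeR Log2FC was 5.13 (adjusted p = 0.0332). It passed the filter on low counts only through MAT, where it was high, so a large Log2FC was favoured in advance. KRT5, a basal keratin, went the other way and was called lower with the block (edgeR Log2FC -2.42, adjusted p = 0.0413). TP63, the defining basal cell factor, reached at most 3 counts. Stromal sums were 2021, 2839 and 4566 TPM in CYST and 1639, 755 and 3002 TPM in MAT, lower in MAT in 3 of 3 pairs though the groups overlapped. All 8 stromal genes had a Log2FC below 0 in both fits, and 1 of them, DCN, was called lower with the block (edgeR Log2FC -1.12, adjusted p = 0.0252). In that fit 10.6% of all genes were called in either direction. The part of these cell type genes in the S100 differences was not tested.

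The comparison of MAT + COL with MAT asks what collagen I adds in the presence of EGF, and the MAT libraries are the same as those above. None of the 10 S100 genes was called, and 0 of 12470 genes (0.0%) were called by edgeR with or without the block. At an unadjusted p under 0.05 there were 51 genes (0.409%) without the block and 618 (4.96%) with it. DESeq2 with the block called 1 gene, which was not an S100 gene, and 0 without it.

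All 10 Log2FC values were below 0 without the block, and 9 of 10 with it. The median without the block was -0.27, against 0.00 for all genes tested, of which 49.9% were above 0. Without MAT replicate 3, the unpaired edgeR Log2FC was 0.24 for S100A6, 3.42 for S100A8, 1.39 for S100A9 and 1.85 for S100A12. S100A14 and S100A16 were then 0.75 and 0.22. S100A2, S100A4, S100A10 and S100A11 stayed below 0, at -0.01, -0.02, -0.07 and -0.17. In the same comparison all 8 stromal genes had a Log2FC above 0 in both fits, and their sum was higher in MAT + COL in 3 of 3 pairs (1905, 2017 and 3506 TPM). Their part in the S100 values was not tested. S100A4 was measured at 198, 373 and 462 TPM in MAT + COL, lower than the MAT library of the same number in 3 of 3 pairs. Its blocked edgeR Log2FC was -0.38 (SE 0.11), with an unadjusted p of 0.0069 and an adjusted p of 0.955. S100A2 was measured at 1914, 2229 and 3329 TPM and was also lower in all 3 pairs, with a blocked edgeR Log2FC of -0.30 (SE 0.11, unadjusted p = 0.0177, adjusted p = 0.955). S100A11 and S100A14 were lower in all 3 pairs as well, making 4 of 10 where 7.95% of the genes tested were. The groups overlapped for all 10 genes, where 2.75% of the genes tested were higher and 0.818% lower without overlap.

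The other members had no common direction across pairs. S100A10, at 2155, 2534 and 3817 TPM in MAT + COL, was lower than MAT in replicates 1 and 2 and higher in replicate 3. S100A8, at 14.4, 21.3 and 235 TPM, was higher than MAT in replicates 1 and 2 and lower in replicate 3. S100A9 (6.15, 2.87 and 9.37 TPM) and S100A6 (8.07, 7.83 and 7.33 TPM) followed the same order as S100A8, whereas S100A16 (204, 181 and 453 TPM) followed that of S100A10. S100A12, at 214, 356 and 2082 TPM, was higher than MAT in replicate 2 alone.

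The comparison of MAT + COL with CYST sets EGF and collagen I together against neither, and uses the CYST libraries a second time. Of the 10 S100 genes tested among 12509 genes, 1 was called higher and 0 lower, where 1.49% of all genes were called and 0.672% were called higher. With the block 4 were called higher, where 5.26% of all genes were called and 2.68% were called higher. S100A4 had an edgeR Log2FC of 2.26 (SE 0.40, adjusted p = 0.0453) and, with the block, 2.19 (SE 0.22, adjusted p = 0.0163). The unpaired edgeR call was lost without any one of the 6 libraries, with adjusted p between 0.0561 and 0.181 and Log2FC between 1.93 and 2.57, and the blocked call was kept without any one replicate number.

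S100A14, at 219, 202 and 828 TPM in MAT + COL, had an edgeR Log2FC of 1.93 (adjusted p = 0.164) without the block and 1.73 (SE 0.21, adjusted p = 0.0186) with it. S100A16 had 1.04 (adjusted p = 0.245) and 0.96 (SE 0.16, adjusted p = 0.0334) in the same edgeR fits. S100A12 had 1.20 (adjusted p = 0.615) and, in the blocked edgeR fit, 1.45 (SE 0.22, adjusted p = 0.0303). The blocked calls of S100A12 and S100A16 were lost without replicate 1 and without replicate 2.

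S100A6 had 17, 17 and 15 counts in MAT + COL against 0, 5 and 1 in CYST. Its edgeR Log2FC was 2.57 (SE 0.92, adjusted p = 0.165), not called in either edgeR fit, and limma on log2(TPM + 1) called it at 2.26 (adjusted p = 0.047). S100A2, S100A8, S100A9, S100A10 and S100A11 were called in neither fit, with Log2FC of 0.33, 1.04, 0.26, -0.07 and 0.12 without the block. By TPM, S100A4, S100A11, S100A14 and S100A16 were higher in MAT + COL without overlap, where 14.3% of the genes tested were. MAT + COL was higher in all 3 pairs for these genes and for S100A2, S100A8 and S100A12, where 29.6% of the genes tested were. S100A6 was also higher in both ways. It is not counted, because it passed the filter only through MAT + COL, where it was high.

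How much of each gene's variation followed the culture group and how much the replicate number was described on log2 CPM, counts scaled to library size, over the 9 libraries. The group took 83.3% of the sum of squares of S100A4, and the replicate number 15.2%. For S100A6 these were 80.0% and 5.6%, on 101 reads in all. S100A6 passed the filter on low counts only through the EGF groups, where it was high, so a large group share was favoured in advance. S100A11 was also mostly a group difference, at 62.4%. S100A14 and S100A16 were divided almost evenly, with 50.2% and 47.7% for the group and 48.5% and 48.2% for the number.

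In contrast, the replicate number took 88.5% of the variation of S100A8, 83.0% of S100A12 and 81.4% of S100A9, and the group 4.7%, 15.7% and 4.7%. S100A2 and S100A10 were also mostly divided by number, at 66.7% and 59.9%. The median over 12822 genes was 29.5% for the group and 32.4% for the number. S100A12 in replicate 3 was 9.81, 13.4 and 7.30 times the mean of replicates 1 and 2 in CYST, MAT and MAT + COL, and S100A8 was 13.04, 56.1 and 13.2 times that mean. The labels do not state what a number stands for.

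**Figure D3:**
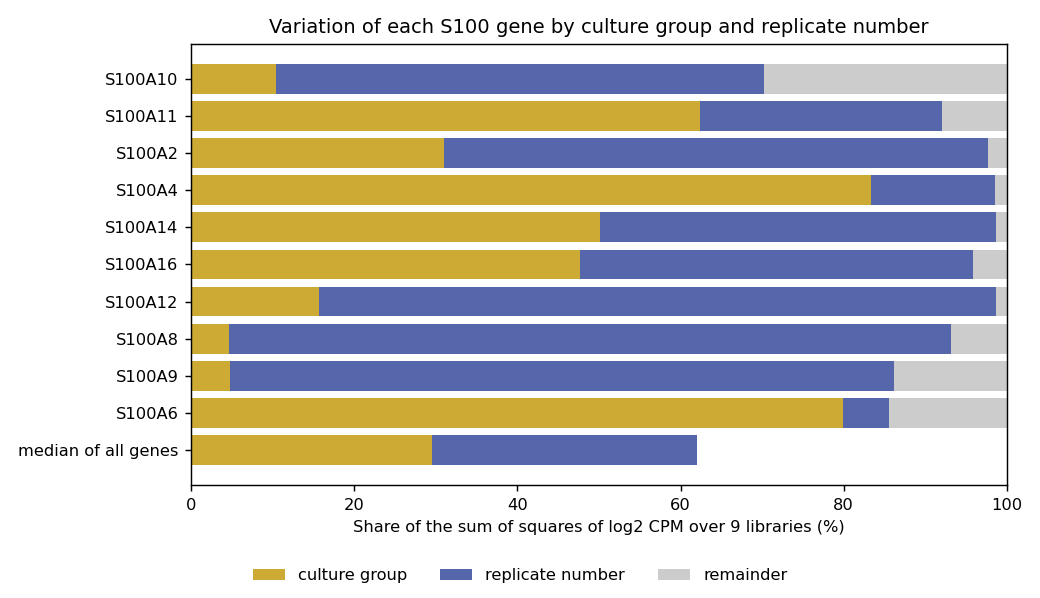
Share of the sum of squares of log2 CPM over 9 libraries that followed the culture group, the replicate number and the remainder, for each S100 gene and as medians over 12822 genes. Each median was taken separately, so the lowest bar does not fill the axis. The group takes 83.3% for S100A4, and the replicate number 88.5% for S100A8.

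The genes whose log2 CPM followed a member most closely over the 9 libraries were ranked by Pearson's r, as a description, since the libraries share groups and replicate numbers. For S100A4 these were MELTF, a transferrin-like membrane protein (r = 0.984), NPC2, a lysosomal cholesterol carrier (0.978), and SYT17 (0.975). S100A14 was closest to IGFBP3, an IGF-binding protein (0.985), and S100A12 to LCP1, an actin-bundling protein (0.986). S100A6, with 101 reads in all and a high level only in the EGF groups, was closest to AHNAK, a large scaffold protein that binds S100A10 (0.973). S100A16 was closest to LTB4R2 (0.985), which averaged only 1.09 TPM over the 9 libraries. The closest named genes reported for other members were WFDC18 for S100A8 (0.979), SLC8A3 for S100A9 (0.944), VDAC2 for S100A10 (0.952) and NAB1 for S100A11 (0.944). SLC8A3 averaged only 0.145 TPM, and S100A9 had 377 reads in all, so depth limits that value. Within the family, S100A14 with S100A16 (r = 0.979) and S100A8 with S100A12 (0.954) were the closest pairs.

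Of 11 other S100 genes listed, 7 had a row and 4 were tested in MAT versus CYST. None was called without the block, and 2 were called higher and 1 lower with it. Over all genes 1.79% were called without the block and 10.6% with it. S100A13 was 18.7, 20.1 and 31.4 TPM in CYST and 49.2, 29.9 and 71.9 TPM in MAT, with a blocked edgeR Log2FC of 1.03 (SE 0.25, adjusted p = 0.0407). S100A5 had a blocked edgeR Log2FC of 1.47 (SE 0.37, adjusted p = 0.0463). S100G, which buffers calcium in transporting epithelia of gut and uterus, went the other way, at 2904, 1518 and 3404 TPM in CYST and 1976, 936 and 1569 TPM in MAT, with a blocked edgeR Log2FC of -0.80 (SE 0.20, adjusted p = 0.045).

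Among annexins, the membrane partners of S100A10 and S100A11, 10 of 12 had a row and none was called in either fit. ANXA2 was 8439, 7420 and 9258 TPM in CYST and 8987, 8101 and 9055 TPM in MAT (edgeR Log2FC 0.03, SE 0.21, adjusted p = 0.962). ANXA1 had a blocked edgeR Log2FC of 0.95 (SE 0.27, adjusted p = 0.0607).

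Of 9 intracellular partners, 0 were called higher and 1 lower without the block, and 1 and 1 with it. The shares of all genes called in either direction were 1.79% and 10.6%. CACYBP, the S100A6 partner, fell from 292, 294 and 216 TPM in CYST to 148, 161 and 129 TPM in MAT (edgeR Log2FC -0.87, SE 0.16, adjusted p = 0.0462). AHNAK was 41.6, 67.9 and 38.1 TPM in CYST and 98.6, 97.6 and 127 TPM in MAT, with an edgeR Log2FC of 1.15 (SE 0.24, adjusted p = 0.0559) and a blocked one of 1.16 (adjusted p = 0.0206). MYH9, the myosin partner of S100A4, had an edgeR Log2FC of -0.09 (adjusted p = 0.843).

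Of 11 genes for receptors and plasmin system partners of S100 proteins, 7 were tested and none was called without the block. With the block PLAU, the urokinase that activates plasminogen, was higher (edgeR Log2FC 0.91, SE 0.18, adjusted p = 0.0256) and the calcium channel TRPV6 lower (edgeR Log2FC -0.82, adjusted p = 0.0388). In that fit 10.6% of all genes were called. PLG had 0 counts in all 9 libraries, and AGER, which encodes RAGE, at most 14 counts. TLR4 was present at 41.0 to 66.9 TPM and was called in neither fit (edgeR Log2FC -0.25, adjusted p = 0.533).

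All 10 S100 genes lie on chromosome 3 within 2007.94 kb (16766317 to 18774258, ARS-UCD2.0), with S100A9 on the minus strand and the rest on the plus strand. S100A14, S100A16, S100A2, S100A4 and S100A6 come first, S100A8, S100A12 and S100A9 follow, and S100A11 and S100A10 are at the far end. The span holds 35 other genes with a row, of which 17 had 0 counts in all 9 libraries. In MAT versus CYST 7 of them were tested, with a median Log2FC of 2.54 against 0.01 for all genes tested. Among the 7, PGLYRP4 and PGLYRP3 averaged only 1.19 and 1.56 TPM over the 9 libraries. Genes this low may pass the filter on low counts only through MAT, where they were high. A high median was thus favoured in advance, and it is given as a description. None of the 7 was called without the block, where 1.79% of all genes were, and 4 were called with it, where 10.6% were.

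These 4 were S100A5 and 3 genes of cornified epithelium: SPRR3 (blocked edgeR Log2FC 4.62, adjusted p = 0.00506), TCHH (2.67, adjusted p = 0.0105) and IVL (2.50, adjusted p = 0.0388). SPRR3 was 26.9, 31.9 and 299 TPM in CYST and 1054, 1429 and 2669 TPM in MAT, without overlap and with replicate 3 highest in both groups. S100A10 and S100A11 lie beyond TCHH, and on the other side of SPRR3 and IVL the called S100A14, S100A16, S100A4 and S100A12 are interspersed with S100A2, S100A8 and S100A9, which were not called.

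**Figure D4:**
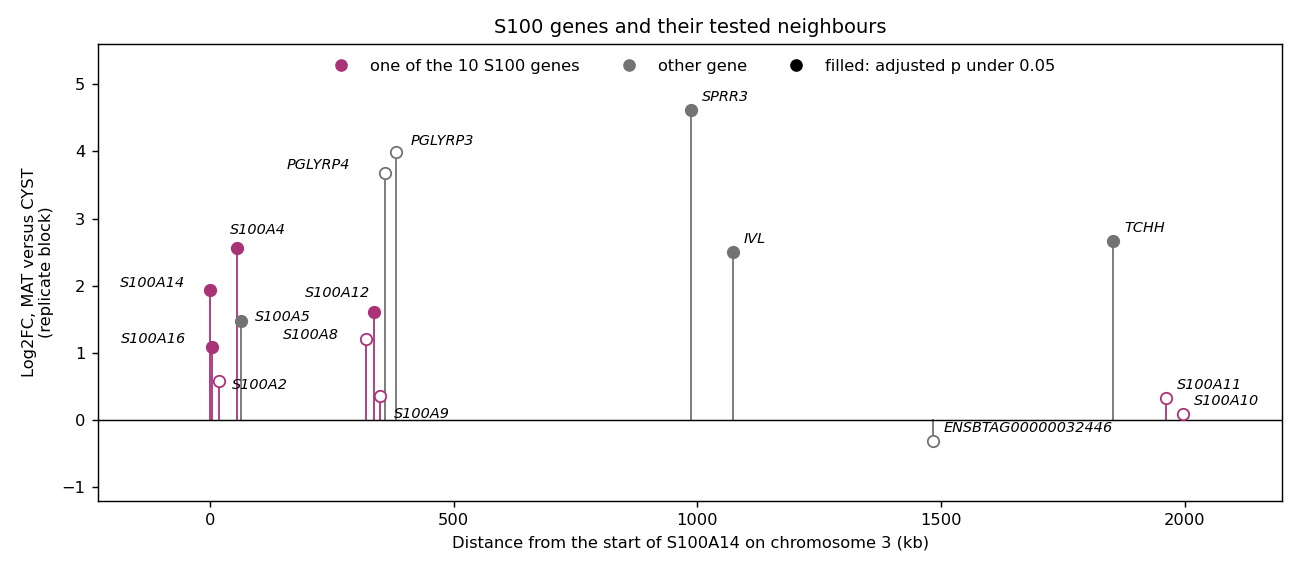
Blocked edgeR Log2FC of MAT versus CYST for the S100 genes tested and the other genes tested between them, by distance in kb from the start of S100A14 on chromosome 3. Filled points have an adjusted p under 0.05, and they include S100A14, S100A16, S100A4 and S100A12 among S100 genes and S100A5, SPRR3, IVL and TCHH among the others.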

How the data were processed

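RNA-seq was performed on 9 libraries of bovine uterine gland fragments on day 5 of culture, 3 per group. The authors prepared SMART-Seq HT PLUS libraries, trimmed paired-end reads and aligned them to ARS-UCD2.0 in CLC Genomics Workbench, for which the submitters' processing notes give version 25.0.1. The authors deposited counts, the reads on each gene without normalization, and TPM. The annotation release and strand setting are not given in the sources used here, so sense and antisense reads cannot be told apart. Total counts were 6568968 to 17948600, and precision from depth covers counting error only.

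Groups and replicate numbers came from the sample titles. The library names carry other numbers for some samples and do not state which CYST library belongs with which EGF library. The pairs and the block therefore rest on the numbers in the titles. Counts were filtered with filterByExpr (minimum count 10), TMM-normalized and tested with edgeR 4.0.16 in R 4.3.3 (glmQLFit and glmQLFTest, 6 libraries per comparison), with Benjamini-Hochberg adjustment over all genes tested. SE is the absolute Log2FC over the square root of F. The labels do not say whether replicates came from separate animals, although the paper's text speaks of individuals for the MAT and MAT + COL libraries, so p-values measure the spread between these libraries, which in part may be technical. Deviations from group means correlated across genes at 0.278 to 0.687 in all 9 same-numbered library pairs, above the threshold of 0.1 for pairing, and at most at 0.111 in the others, so the replicate number was also fitted as a block. Log2 CPM used a prior count of 2. Alternatives were DESeq2 1.42.0, RLE size factors, no filter, all 9 libraries in one fit, limma 3.58.1 on log2(TPM + 1) and log2(TPM + 0.1), the block, and leaving out libraries or replicate numbers. Positions were compared with RefSeq's bovine gene table, which holds 9 of the 10 symbols.

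The members, gene lists and tests were chosen with earlier results of these data known. All 10 members were named in every comparison, with listed genes that were called or most abundant, the genes most correlated with each member, and neighbouring genes. Some correlated genes are not reported here. CD14 and the other neutrophil and monocyte genes, TP63, MYH9, AGER, PLG, TLR4 and ANXA1 were named after their values were seen.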

Additional observations from a re-analysis of the deposited data

How the results depend on the processing

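Without the replicate block edgeR called 1 S100 gene in MAT versus CYST and 1 in MAT + COL versus CYST, in both cases S100A4. With the replicate block 4 and 4 were called, and the block changed no other call of the 10 genes. DESeq2 called 3 and 2, DESeq2 with the block 5 and 4, all 9 libraries in one fit with the block 5 and 4, and limma on log2(TPM + 1) 1 and 2. The limma calls in MAT + COL versus CYST were S100A4 and S100A6, and S100A6 passed the filter only through MAT + COL, where it was high. DESeq2 without the block gave no adjusted p for S100A8 and S100A12 in MAT versus CYST or in MAT + COL versus MAT. Leaving out 1 library gave 0 to 1 in MAT versus CYST and 0 in MAT + COL versus CYST, and leaving out 1 replicate number with the block gave 2 to 4 in both. Every alternative called 0 S100 genes in MAT + COL versus MAT. Over all genes, 216 were called in MAT versus CYST and 186 in MAT + COL versus CYST, against 1277 and 658 with the block, 1278 and 1524 by DESeq2, 1979 and 1907 by DESeq2 with the block, 580 and 601 with all 9 libraries, 2118 and 2035 with all 9 libraries and the block, and as few as 5 and 3 with 1 library left out. With the block and 1 replicate number left out, these counts ran from 36 to 1867 and from 109 to 2406, and up to 46 genes were called in MAT + COL versus MAT.

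The direction of S100A4 and S100A11 was kept under every alternative in all 3 comparisons, and so was that of S100A2. In MAT versus CYST, leaving out 1 library gave Log2FC from -2.43 to 4.56 for S100A8, -1.15 to 1.87 for S100A9, -0.02 to 0.22 for S100A10 and -0.69 to 3.97 for S100A12, and S100A10 was -0.03 with the block and without replicate 2. In MAT + COL versus CYST the ranges were -1.41 to 3.69 for S100A8, -0.26 to 1.65 for S100A9, -0.41 to 0.14 for S100A10 and -0.54 to 3.43 for S100A12, and with the block and without replicate 1 S100A9 was -0.03 and S100A10 was 0.11. In MAT + COL versus MAT they were -0.78 to 0.24 for S100A6, -3.32 to 3.42 for S100A8, -0.75 to 1.39 for S100A9, -0.50 to 0.03 for S100A10, -2.29 to 1.85 for S100A12, -1.21 to 0.75 for S100A14 and -0.65 to 0.22 for S100A16. In the same comparison S100A8 turned positive with DESeq2 and the block (0.29), all 9 libraries and the block (0.04), limma on log2(TPM + 0.1) (0.40) and limma on log2(TPM + 1) (0.35), and S100A9 in the same settings (0.19, 0.27, 0.33 and 0.23) and with the block (0.15). With the block and without replicate 3, S100A6 was 0.24, S100A8 1.02, S100A9 0.77 and S100A12 0.09. S100A9 was 0.05 without replicate 2 and S100A16 was 0.03 without replicate 1, both with the block. The cause of these changes was not tested. With 101 reads in all for S100A6 and 377 for S100A9, depth limits both.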
